A study of Drosophila melanogaster with 30 samples.

Results

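Transposable elements are stretches of DNA that can move or copy themselves within a genome, and each place where one sits is an insertion. In the RNA of adult Drosophila melanogaster heads, counts were examined for the annotated insertions of the fly genome, which the count tables list beside the genes. The members are the insertions with 10 or more counts summed over the 15 libraries of the glia dataset, which gave 2016 of 5578 listed insertions, or 36.1%. At least 1 count was present for 3423 listed insertions. At the minimum, 63 insertions had a total of exactly 10 counts, present in 2 to 8 libraries, and 67 insertions just outside had a total of 9 counts, present in 1 to 9 libraries. Because the minimum was applied to the summed counts, an insertion counted in 1 group only could become a member through that group alone.

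All flies were collected 22 to 31 h after eclosion, and RNA came from whole heads, homogenised in Trizol and then purified on columns. Bchs (Blue cheese), the fly counterpart of the large autophagy scaffold WDFY3, was overexpressed with the Gal4/UAS system, in which a driver line supplies the activator Gal4 and a second line carries the responding transgene. The glial overexpression group (repo-Gal4/UAS-bchs::HA) carried a driver that acts in glia and a tagged bchs transgene, the repo-Gal4 control (repo-Gal4/+) carried only the driver, and the UAS control (UAS-bchs::HA/+) carried only the transgene. Each group held 5 libraries. Levels are given as counts per 1000000 gene counts (CPM). Expression of bchs was 1290 ± 56.8 CPM with overexpression, 153 ± 66.1 CPM with the driver alone and 165 ± 85.3 CPM with the transgene alone (mean ± SD, n = 5 each), so it followed the labels in every library.

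Long terminal repeat (LTR) retrotransposons and LINE-like retrotransposons copy themselves through an RNA that is reverse transcribed, whereas DNA transposons move as DNA. In Drosophila, piRNAs silence these elements in the gonads, and small interfering RNAs made by Dicer-2 and loaded into AGO2 do so in somatic tissue, the brain included. Many insertions are old and truncated, and lie inside introns, where they are transcribed as part of the host gene's precursor RNA.

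The libraries held 28685786 to 84208964 gene counts and 6424 to 86864 counts in member insertions. Reads that aligned to several places were set aside by the authors' counting at 1.80 to 2.57% of gene counts, so that near-identical copies of an element can be undercounted or confused with each other, and each insertion is uncertain in that respect. Whether the flies carried every annotated insertion was not tested.

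The members belonged to 120 named families where the annotation gave one, which it did for 1998 members. DNA transposons made up 955 members and 51.8% of the summed mean level, LINE-like elements 427 members and 25.5%, and LTR elements 607 members and 22.3%. The short DNA element INE-1, an ancient and immobile family, alone held 647 members and 34.9% of the level. By position, 752 members lay in an intron on the strand of the host gene and held 48.4% of the level. Another 347 lay in an intron on the opposite strand, 127 overlapped an annotated exon, and 790 lay outside genes. Of the insertions listed in introns on the host's strand, 61.3% were members, against 29.9% of those in introns on the opposite strand and 28.2% of those outside genes. On chromosome 4, a small and largely heterochromatic chromosome, 320 of 565 listed insertions were members, and they held 33.5% of the level.

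Counts were concentrated in few insertions. The 10 with the highest mean level held 23.8% of the summed level and the first 100 held 60.5%, while 248 members averaged under 1 count per library and 628 averaged 10 or more. The highest was Doc{}CHKov1[Doc1420], a LINE-like insertion of 4516 bp that overlaps an exon of CHKov1, at chr3R:25324412-25328927 in build BDGP6.54. Its mean over the 15 libraries was 50.6 CPM, or 11.2 CPM per kb of insertion. The overexpression libraries had 68.3, 48.5, 31.5, 96.9 and 33.8 CPM, the repo-Gal4 controls 63.9, 67.2, 4.39, 58.2 and 64.0, and the UAS controls 53.8, 1.92, 54.9, 58.6 and 52.7. The groups overlapped, and the third repo-Gal4 control and the second UAS control lay far below the others. Its host gene CHKov1 was low in the same libraries, at 3.88 CPM in the third repo-Gal4 control and 2.80 CPM in the second UAS control, against 18.1 to 39.9 CPM elsewhere. CaMKII, nrm, nrv3 and nAChRalpha3, hosts of other insertions among the 10, were also the lowest of their groups there. Another of the 10, accord{}818, had 1.27 and 1.68 CPM in these libraries. Its host CG17574, on the opposite strand, had 33.6 and 17.4 CPM there, against 25.5 to 36.2 CPM elsewhere.

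Per kb, short insertions in neuronal and synaptic genes came first among these 10. INE-1{}3385, 541 bp in an intron of CaMKII, the calcium and calmodulin dependent kinase, had 36.1 CPM per kb. INE-1{}3227, 336 bp in an intron of nrm (neuromusculin), had 29.5, and hopper2{}4186, 606 bp in an intron of nrv3, a sodium pump beta subunit of neurons, had 26.5 CPM per kb. The other 6 were accord{}818, H{}84 in nAChRalpha3 (an acetylcholine receptor subunit), 1360{}1514, INE-1{}5364, HeT-A{}5504 and springer{}1067, at 1.31 to 8.91 CPM per kb. Of these 10, 8 were not called between any groups (adjusted p of 0.532 or more against either control in edgeR's quasi-likelihood test). The other 2, HeT-A{}5504 and springer{}1067, are described below with the groups.

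The summed level of the members differed more between single libraries than between groups. It was 815, 506, 277, 1038 and 333 CPM in the overexpression libraries, 970, 983, 128, 739 and 1032 CPM in the repo-Gal4 controls and 1012, 81.8, 941, 911 and 889 CPM in the UAS controls. Both control groups thus had 4 libraries at 739 CPM or more and 1 library at 128 CPM or less, and the overexpression libraries were spread between 277 and 1038 CPM. The group means were 594 ± 325, 770 ± 376 and 767 ± 386 CPM (SD, n = 5), a ratio of 0.771 of overexpression to the repo-Gal4 control and 0.774 to the UAS control, well within the spread between libraries. Without the third repo-Gal4 control and the second UAS control, the ratios were 0.638 and 0.633, and without the third overexpression library as well they were 0.723 and 0.717.

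The libraries with low sums were low in other measures too. Counts outside all listed features were 0.528% of gene counts in the second UAS control and 0.536% in the third repo-Gal4 control, 1.20% and 1.75% in the fifth and the third overexpression library, and 1.78 to 2.78% in the other 11. For genes, the log2 level relative to each gene's median over the libraries was set against the log2 length of its longest spliced transcript. The slope was -1.37 in the second UAS control and -0.95 in the third repo-Gal4 control. It was -0.38 to -0.39 in those 2 overexpression libraries, against -0.18 to 0.09 in the others. Summed markers of neurons, which include long genes such as para, ranged from 294 to 5789 CPM over the libraries, and summed markers of photoreceptors from 30359 to 41604 CPM. The part of these measures in the insertion levels was not tested.

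**Figure D1:**
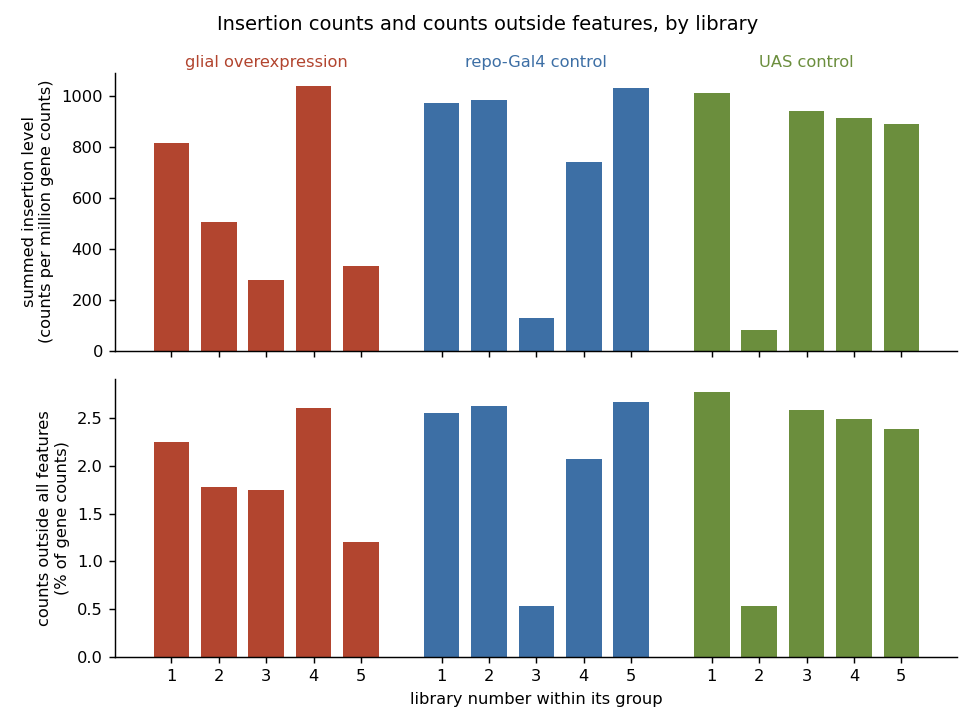
The upper bars show the summed level of the 2016 insertions in each library (CPM), and the lower bars show counts outside all listed features as a percentage of gene counts, for the 3 groups of 5 libraries. Both are lowest in the second UAS control (81.8 CPM and 0.528%) and the third repo-Gal4 control (128 CPM and 0.536%), and the overexpression libraries spread from 277 to 1038 CPM.

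The third overexpression library stood apart in the number of features. A count was found there for 531 members, against 474 in the second UAS control, 929 in the third repo-Gal4 control and 1378 to 1793 in the other 12 libraries. It also held 92 genes with 1 to 3 counts, where the other libraries held 446 to 1509. Its insertions at low levels are therefore listed at 0 more often, at a depth of 64440030 gene counts.

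The low levels in these 2 control libraries were uneven over the insertions. Insertions in introns on the host's strand had 5.57% of the mean of the other 4 UAS controls in the second UAS control, and 8.59% of the other 4 repo-Gal4 controls in the third repo-Gal4 control. Their 420 host genes, summed, had 15.6% in the second UAS control. Insertions outside genes kept 13.3% and 16.7%, and LTR elements kept 14.1% and 27.4%. Among the 626 insertions that averaged 10 or more counts over all libraries and had counts in the other UAS controls, 38 (6.07%) kept at least 50% of their level in the second UAS control, whereas 58.4% of 10875 genes of the same minimum did.

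Some families were not low there. The 17 pogo insertions, DNA transposons of the Tc1/mariner group, summed to 3.33, 3.96, 3.84, 3.24 and 3.55 CPM in the UAS controls, and the 8 Max insertions, LTR elements, to 5.46, 5.17, 5.98, 4.58 and 4.36 CPM. The second UAS control was thus at 113% of the others for pogo and 101% for Max. INE-1 was at 5.49% there, and HeT-A at 5.58%. In all, 22 single insertions kept at least 50% in both low libraries, the highest in level being springer{}1067, Max{}RR48810, mariner2{}1523 and pogo{}1228.

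**Figure D2:**
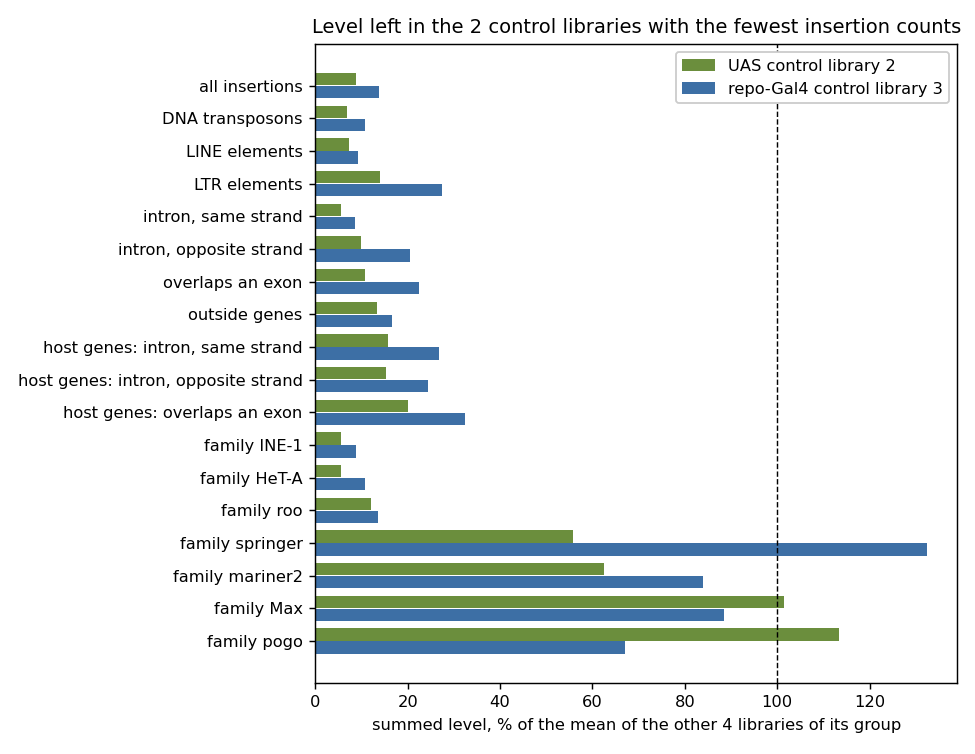
Bars show the summed level in the second UAS control and in the third repo-Gal4 control as a percentage of the mean of the other 4 libraries of the group, for insertions by class, position and family and for host genes. Most sets are under 30%, and the families springer, mariner2, Max and pogo reach 55.7 to 132%.

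Against the repo-Gal4 control, 4 of the 2016 members differed at an adjusted p under 0.05 in edgeR's quasi-likelihood test, against 0.327% of all 15896 features tested. Of these 3 were higher (0.258% of all features) and 1 lower (0.0692%). Against the UAS control, 15 differed, against 1.06% of all features, with 10 higher (0.856%) and 5 lower (0.208%). The controls differed from each other in 12 members, against 0.629% of all features. In the repo-Gal4 control 7 were higher (0.371%) and 5 lower (0.258%). These shares of the members, 0.198%, 0.744% and 0.595%, were near or below those over all features. The median log2 fold change of the members with overexpression was -0.41 and -0.42 relative to the driver and the transgene control, where it was 0.06 and 0.05 over all features, and it was 0.01 between the controls. The first 2 comparisons share the overexpression libraries. The member medians in these 2 comparisons were -0.14 and -0.01 with a covariate for counts outside all features. They were -0.12 and -0.08 when insertions were scaled by the summed insertion counts, and -0.22 and -0.20 without the third overexpression library. Without the third repo-Gal4 control and the second UAS control they were -0.69 and -0.69. In all, 23 members were called in at least 1 comparison, of which 11 were LTR elements, 9 LINE-like elements and 3 DNA transposons, and 14 lay outside genes. Of all members, 30.1% were LTR elements, 21.2% LINE-like elements and 47.4% DNA transposons, and 39.2% lay outside genes. The share of all features called in at least 1 comparison is not given, and this breakdown was not tested.

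One pattern was an insertion counted in both groups with the repo-Gal4 driver and at a lower level, or at 0, in the UAS control. springer{}1067 (FBti0020178) is a full-length LTR element of 7543 bp at chr3L:20476808-20484350 that overlaps exons of isoQC and ZnT77C. It had 13.1, 15.1, 10.4, 16.8 and 13.7 CPM with overexpression, 12.2, 14.4, 12.9, 12.7 and 12.7 CPM in the repo-Gal4 controls and 2.46, 1.81, 2.61, 3.45 and 4.12 CPM in the UAS controls. All 10 libraries with the driver lay above all 5 without it, the third repo-Gal4 control, low elsewhere, included. Relative to the UAS control, the log2 fold change was 2.26 ± 0.20 (SE) with overexpression and 2.17 ± 0.20 in the repo-Gal4 control, with adjusted p of 1.92e-05 and 3.93e-05 in edgeR. When insertions were scaled by the summed insertion counts instead of gene counts, these became 0.259 and 0.372 in edgeR, with log2 fold changes of 2.07 and 2.22. Neither overlapped gene was called, with isoQC at 18.5 ± 0.917, 16.7 ± 1.44 and 13.8 ± 2.76 CPM and ZnT77C at 12.1 ± 1.35, 17.2 ± 1.12 and 14.7 ± 4.76 CPM in overexpression, repo-Gal4 control and UAS control.

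HeT-A elements are LINE-like retrotransposons that add themselves to chromosome ends and so maintain fly telomeres. HeT-A{}5504 (FBti0063565), 2361 bp at chrX:114047-116407 and outside genes, had 1726, 1005, 441, 2154 and 793 counts with overexpression (6.84 to 37.5 CPM) and 1722, 1204, 163, 490 and 1885 counts in the repo-Gal4 controls (2.05 to 24.9 CPM). The UAS controls had 26, 0, 20, 32 and 8 counts (0 to 0.416 CPM), so that they did not overlap with the other groups. Relative to the UAS control, the log2 fold change was 6.46 ± 0.87 with overexpression (adjusted p = 0.00157) and 6.31 ± 0.86 in the repo-Gal4 control (adjusted p = 0.00172) in edgeR. The other 13 HeT-A members summed to means of 15.2, 17.1 and 18.8 CPM in overexpression, repo-Gal4 control and UAS control, with no such gap. Of these 13, HeT-A{}4617 was called against the UAS control (adjusted p = 0.0355 in edgeR), at means of 0.855, 0.542 and 0.0771 CPM, and the repo-Gal4 and UAS controls overlapped.

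jockey{}1461 (FBti0019464), a LINE-like element of 2397 bp at chr3R:30480543-30482939, lies in an intron of PH4alphaEFB on the opposite strand. It had 61, 53, 52, 70 and 63 counts with overexpression (0.792 to 1.22 CPM), 29, 9, 11, 14 and 56 counts in the repo-Gal4 controls (0.138 to 0.665 CPM) and 0 counts in all 5 UAS controls. Set against a floor of 3 counts over the UAS group, it was at least 118-fold higher with overexpression and at least 48.6-fold higher in the repo-Gal4 control (adjusted p = 0.000175 and 0.000725 in edgeR). All overexpression libraries lay above all repo-Gal4 controls, but that comparison had an adjusted p of 0.617 in edgeR (log2 fold change 1.31 ± 0.46). The host gene PH4alphaEFB, a prolyl hydroxylase subunit, was not called, at 72.7 ± 7.36, 78.1 ± 12.1 and 71.6 ± 4.02 CPM.

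A second full-length copy, springer{}1464 (FBti0019466) in an intron of Sox100B at chr3R:31074284-31081826, had 3.28, 3.91, 0.481, 3.45 and 2.77 CPM with overexpression. The repo-Gal4 controls had 4.10, 4.25, 10.3, 3.97 and 3.38 CPM, and the UAS controls had 0.645, 0.178, 0.602, 0.572 and 0.532 CPM. The third repo-Gal4 control was the highest of all 15 here, although it was among the lowest for most insertions, and the third overexpression library fell among the UAS controls. The repo-Gal4 control was higher than the UAS control by 3.36 ± 0.52 on the log2 scale (adjusted p = 0.00412 in edgeR). With overexpression the log2 fold change was 2.45 ± 0.50 (adjusted p = 0.0293), a call lost when any 1 of 8 libraries was left out (adjusted p up to 0.079 in edgeR).

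In 7 members all libraries of both driver-carrying groups lay above all UAS controls, 0.347% of the members against 1.11% of all features, and in 2 they lay below, against 0.182%. Besides springer{}1067, HeT-A{}5504 and jockey{}1461, the 7 were copia{}1016, 412{}882, 412{}902 and pogo{}909, and the 2 were gypsy2{}5194 and G{}431. These 6 were named after their values were seen, and each was at 1.09 CPM or less in every library.

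The reverse pattern, an insertion counted in both groups with the UAS-bchs::HA transgene and low in the repo-Gal4 control, was led by LTR elements. diver2{}1632 (FBti0059693), 11930 bp outside genes at chr2R:5048677-5060606, had 184, 147, 36, 88 and 117 counts with overexpression (0.559 to 3.09 CPM). The repo-Gal4 controls had 0, 3, 0, 1 and 5 counts, and the UAS controls had 359, 24, 260, 204 and 216 counts (0.306 to 4.37 CPM). All 10 libraries with the transgene lay above all repo-Gal4 controls. The log2 fold change against the repo-Gal4 control was 5.86 ± 0.86 with overexpression (adjusted p = 0.007) and that of the repo-Gal4 control against the UAS control was -6.49 ± 0.87 (adjusted p = 0.00146) in edgeR.

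opus{}861 (FBti0019043), 2573 bp of an LTR element at chr2R:20069299-20071871, had 3.04, 4.82, 4.07, 7.51 and 4.98 CPM with overexpression. It had 0.290, 0.618, 0.0629, 0.244 and 0.808 CPM in the repo-Gal4 controls and 5.32, 0.751, 6.97, 6.70 and 6.83 CPM in the UAS controls. Overexpression did not overlap the repo-Gal4 control, and the second UAS control fell within it. Overexpression was higher than the repo-Gal4 control by 3.57 ± 0.63 on the log2 scale (adjusted p = 0.0198 in edgeR), a call lost without any 1 of 4 libraries. The repo-Gal4 control was lower than the UAS control, with a log2 fold change of -3.69 ± 0.63 (adjusted p = 0.00982 in edgeR).

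ZAM is an endogenous retrovirus known for its control by the flamenco piRNA cluster in the ovary. ZAM{}RR48383, 8422 bp at chr2R:1808663-1817084, had 3.93, 7.17, 2.42, 9.31 and 2.12 CPM with overexpression and 0.898, 0.582, 0.0755, 0.767 and 0.309 CPM in the repo-Gal4 controls. The UAS controls had 10.9, 2.92, 23.5, 19.0 and 41.8 CPM, so that all libraries with the transgene lay above all repo-Gal4 controls. The repo-Gal4 control was lower than the UAS control, with a log2 fold change of -5.25 ± 0.77 (adjusted p = 0.00281), while overexpression against the repo-Gal4 control had an adjusted p of 0.0883 in edgeR. The fifth UAS control was 14.3 times the median library.

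Smaller differences of this kind were those of Max{}RR48810 and jockey{}1009. Max{}RR48810, 8573 bp at chr2L:22765149-22773721, had 3.04, 3.76, 3.97, 3.14 and 2.82 CPM with overexpression, 147, 104, 105, 43 and 143 counts in the repo-Gal4 controls (1.32 to 2.13 CPM) and 3.55, 2.27, 3.48, 2.81 and 2.58 CPM in the UAS controls. The repo-Gal4 controls lay below all other libraries. The log2 fold change of overexpression over that control was 0.97 ± 0.19 (adjusted p = 0.0403 in edgeR), and leaving out any 1 library other than the second UAS control ended the call, with adjusted p up to 0.147. jockey{}1009 (FBti0020120), 500 bp at chr3L:15899285-15899784, totalled 3 counts over the repo-Gal4 controls and 103 over the UAS controls, a ratio of 28.0 with a 95% exact counting interval of 9.33 to 138 (adjusted p = 0.0295 in edgeR, lost without any 1 of 10 libraries). In 5 members all libraries with the transgene lay above all repo-Gal4 controls, against 0.252% of all features. Besides ZAM{}RR48383, diver2{}1632 and Max{}RR48810, these were pogo{}916 and ninja-Dsim-like{}589. In 1 member, roo{}867, they lay below, against 0.101%. The last 3 were named after their values were seen, and none was called in edgeR.

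**Figure D3:**
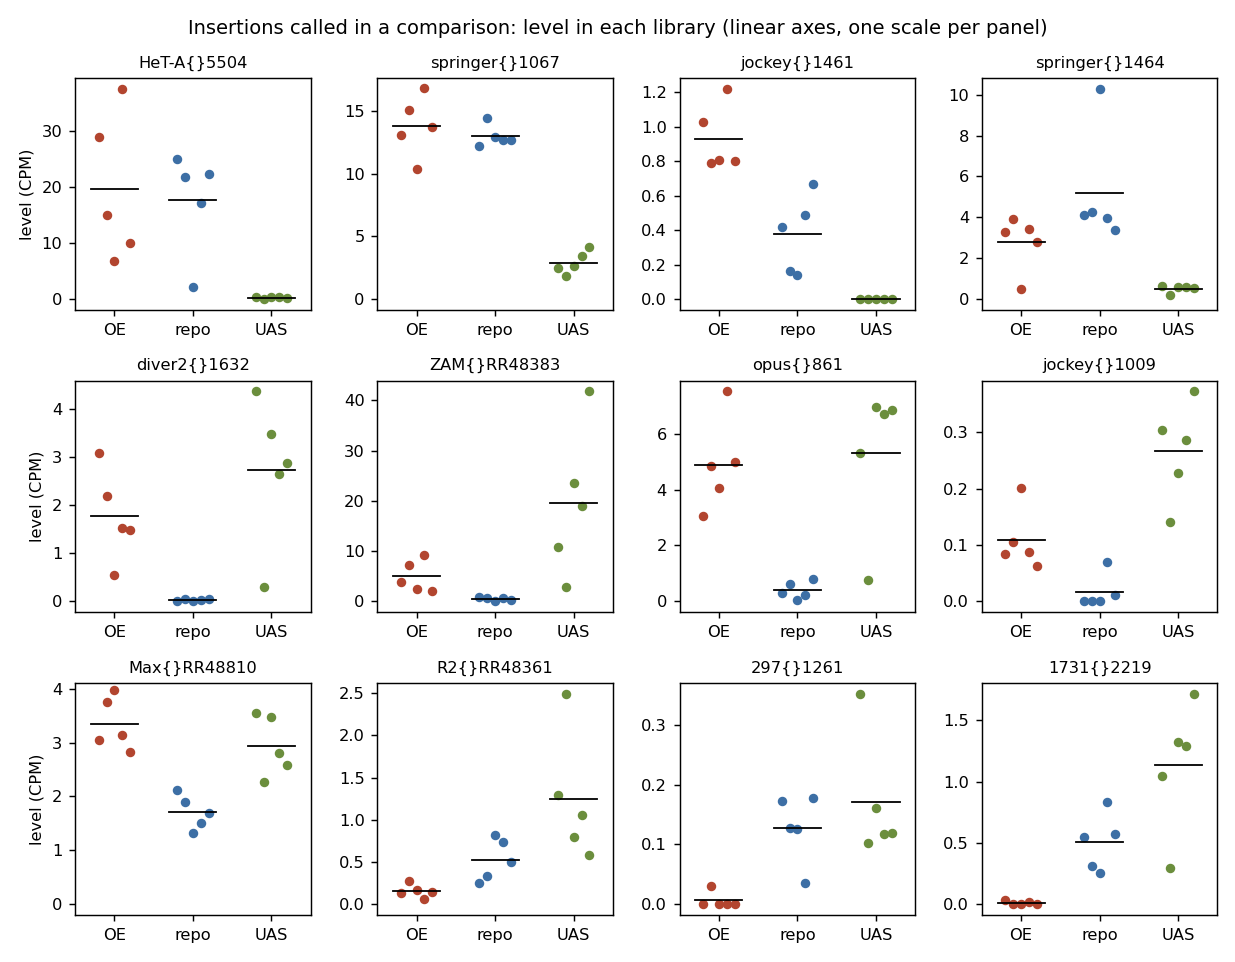
Points show the level (CPM, linear axes with a scale for each panel) of 12 insertions in the overexpression (OE), repo-Gal4 control (repo) and UAS control (UAS) libraries, 5 each, and lines show group means. The upper row is highest in the groups with the driver, diver2, ZAM, opus, jockey{}1009 and Max have their lowest means in the repo-Gal4 control, and R2, 297 and 1731 have theirs with overexpression.

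When each control was required separately, 1 member passed both comparisons in one direction, against 0.138% of all features. This was 1731{}2219 (FBti0060280), a copia-type LTR element of 4648 bp at chr2R:6346949-6351596, outside genes. It had 2, 0, 0, 1 and 0 counts with overexpression, 38, 17, 20, 24 and 48 in the repo-Gal4 controls (0.252 to 0.837 CPM) and 86, 23, 99, 99 and 129 in the UAS controls (0.293 to 1.72 CPM). All overexpression libraries lay below all controls, the 2 low control libraries included. The level with overexpression was lower by a ratio of 50.6 (95% exact counting interval 17.0 to 248) than in the repo-Gal4 control and by 123 (41.7 to 597) than in the UAS control, with adjusted p of 0.00577 and 0.000394 in edgeR. The call held in edgeR without each library in turn, with adjusted p up to 0.020 against the repo-Gal4 control. The 7 members of the 1731 family summed to 0.637 to 1.21 CPM with overexpression, which overlapped the repo-Gal4 control at 0.529 to 1.53 CPM. Without 1731{}RR48331, the member of highest level, the family summed to means of 0.188, 0.652 and 1.33 CPM. These are for overexpression, repo-Gal4 control and UAS control, and they include 1731{}2219 itself, at means of 0.0102, 0.503 and 1.13 CPM. The gap between the groups in this sum was about that of 1731{}2219 alone.

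No member was higher against both controls at an adjusted p under 0.05 in edgeR, and none was in DESeq2. At an unadjusted p under 0.05 in edgeR, 56 members passed against both in one direction, which was 2.78% of the members and 2.91% of all features. Of the 56, 4 were higher, against 1.86% of all features, and 52 lower, against 1.04%. All overexpression libraries lay above all controls in 2 members, against 2.01% of all features, and below all controls in 4, against 0.201%. The 2 were jockey{}1461 and RR48304, and the 4 were 1731{}2219, 297{}1261, S{}8 and blood{}1462. RR48304, S{}8 and blood{}1462 were named after their values were seen, and none of these 3 was called in edgeR.

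R2 elements insert into the ribosomal RNA genes, and R2{}RR48361, 3608 bp at chrX:23220092-23223699, was the 1 R2 insertion listed. It had 0.135, 0.269, 0.171, 0.0523 and 0.140 CPM with overexpression, 0.246, 0.327, 0.818, 0.732 and 0.499 CPM in the repo-Gal4 controls and 106, 196, 59, 81 and 44 counts in the UAS controls, where the lowest was 0.585 CPM. The second UAS control was the highest of all 15 libraries, and 1 repo-Gal4 control lay within the overexpression range. Overexpression was lower than the UAS control, with a log2 fold change of -3.00 ± 0.51 (adjusted p = 0.00802 in edgeR), and lower than the repo-Gal4 control by a log2 fold change of -1.75 ± 0.50 that did not pass (adjusted p = 0.273). Scaled by summed insertion counts, the first had an adjusted p of 0.178 in edgeR. 297{}1261 (FBti0019333), an LTR element of 3420 bp at chr3R:8090593-8094012, had 2 counts over the overexpression group, against 45 in the repo-Gal4 controls and 67 in the UAS controls, a ratio to the UAS control of 28.3 (7.52 to 238; adjusted p = 0.0241 in edgeR, lost without any 1 of 6 libraries). Its comparison with the repo-Gal4 control had an adjusted p of 0.0831 in edgeR.

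The number of called members was higher without the 2 low control libraries. Without the third repo-Gal4 control and the second UAS control, 51 members differed between overexpression and the repo-Gal4 control, 12 higher and 39 lower, against 8.38% of all features in edgeR. Against the UAS control 97 differed, 24 higher and 73 lower, against 14.4% of all features, and 28 differed between the controls, against 2.29%. In that fit 22 members differed from both controls in one direction, against 5.05% of all features. All 22 were lower, against 0.51% of all features. The 2 libraries left out had the lowest summed insertion levels, so that leaving them out raises the control means of the sum. How far this choice set the direction of the calls was not tested. Of the 22, 9 were LTR elements, 7 LINE-like elements and 6 DNA transposons, and 13 lay outside genes. Over all members these shares were 30.1%, 21.2%, 47.4% and 39.2%, and this breakdown was not tested. Leaving out the third overexpression library as well gave 54, 107 and 60 called members in the 3 comparisons, against 5.89%, 11.6% and 3.57% of all features. It gave 20 members against both controls, against 3.42%, and all 20 were lower, against 0.51%, with 16 in common with the 22.

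INE-1{}3470, outside genes, had means of 2.47, 6.04 and 7.20 CPM in overexpression, repo-Gal4 control and UAS control over all 15 libraries, and was not called there (adjusted p = 0.958 and 0.501 in edgeR). Without the 2 control libraries its log2 fold changes were -1.61 and -1.86 (adjusted p = 0.0415 and 0.0154 in edgeR). Without the third overexpression library as well, the call against the repo-Gal4 control was lost (adjusted p = 0.0686 and 0.0266 in edgeR). HMS-Beagle{}333, an LTR element outside genes, had means of 0.992, 1.76 and 1.91 CPM in the 3 groups and log2 fold changes of -1.02 and -1.20 without the 2 control libraries (adjusted p = 0.0221 and 0.00474 in edgeR). It stayed called without all 3 (0.0373 and 0.00878 in edgeR) and was not called over all 15 (adjusted p = 0.902 and 0.445 in edgeR). Both insertions were chosen from the 22 after their values were seen, as the members of highest level. The other 20 were at 1.24 CPM or less in every group mean.

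By family, springer had sums in the UAS control that lay apart from those of the driver-carrying groups. The 6 springer members summed to 16.9, 19.6, 12.2, 20.9 and 17.2 CPM with overexpression, 17.6, 20.3, 24.4, 18.2 and 17.6 CPM in the repo-Gal4 controls and 4.70, 2.84, 4.43, 5.64 and 5.62 CPM in the UAS controls. The UAS controls lay below all others, and springer{}1067 alone held 71.4% of the family's level. The 30 copia members summed to 5.01 to 15.1 CPM with overexpression, 2.62 to 12.9 CPM in the repo-Gal4 controls and 0.942 to 5.78 CPM in the UAS controls, which overlapped. The 23 opus members summed to means of 12.5 ± 4.65, 6.65 ± 3.56 and 16.6 ± 8.56 CPM in overexpression, repo-Gal4 control and UAS control (SD, n = 5), again with overlap. No test was made of these sums.

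**Figure D4:**
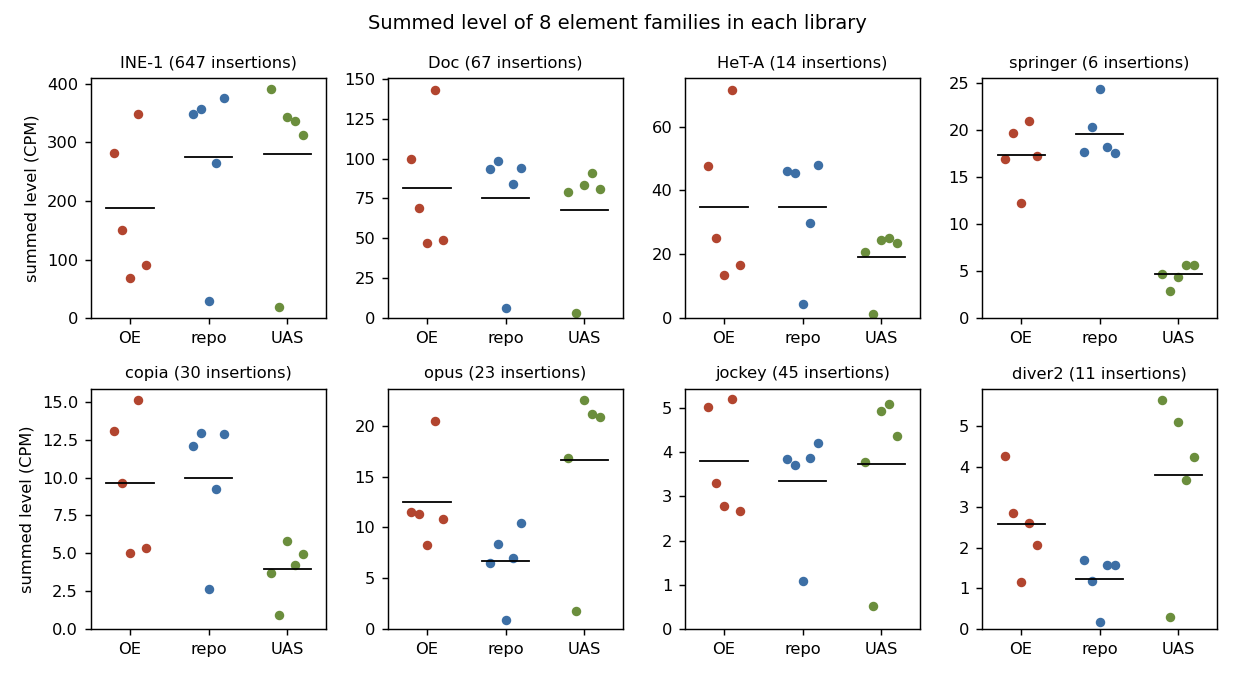
Points show the summed level (CPM) of the members of 8 element families in the overexpression (OE), repo-Gal4 control (repo) and UAS control (UAS) libraries, and lines show means. The springer sums of the UAS controls, 2.84 to 5.64 CPM, lie below all others, while INE-1, Doc and jockey overlap between groups with 1 low library in each control group.

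The other 11 called members, 412{}882, pogo{}909 and G{}431 among them, were all under 1 CPM in every group mean. Of these, 6 were higher with overexpression than in the UAS control, with the UAS controls at no more than 18 counts in a library, and 2 were lower. The other 3 were called only between the controls.

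Genes that restrain transposable elements were measured in the same fit. Of 29 tested genes of the piRNA pathway, 6 of the siRNA pathway and 13 of heterochromatin, 0 were called in any of the 3 comparisons by edgeR. At an unadjusted p under 0.05, 2 piRNA pathway genes passed against the UAS control and 1 between the controls, and DESeq2 called 1 piRNA pathway gene in each of these. The core germline genes were at low levels. The gene piwi, whose product binds piRNAs in the nucleus, had 0.370, 0.428 and 0.489 CPM in overexpression, repo-Gal4 control and UAS control. The gene aub, which encodes another germline piRNA-binding protein, had 0.774, 0.823 and 0.712 CPM. The germline markers vas, bam and osk together had at most 0.523 CPM in any library. AGO2, which carries siRNAs, had 320, 297 and 248 CPM, and Dcr-2, which makes them, had 59.2, 50.2 and 43.1 CPM (adjusted p of 0.851 and 0.874 against the UAS control in edgeR). The gene egg, which encodes a histone H3 methyltransferase of heterochromatin, had 30.5, 27.6 and 26.8 CPM. In whole heads, a change in the number of cells of a type and in RNA per cell cannot be told apart.

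Heads expressed the defining markers of glia, neurons and photoreceptors, with repo at 38.4 to 70.8 CPM and ninaE, the major rhodopsin, at 14256 to 19884 CPM. Of 10 glial markers, 1 (wrapper) was higher with overexpression than in the UAS control (adjusted p = 0.029 in edgeR), where DESeq2 called 2. edgeR called 0 of 8 neuronal, 6 photoreceptor, 5 fat body, 5 muscle and 4 haemocyte markers in any comparison. DESeq2 called 1 fat body marker against the UAS control and 1 between the controls. At an unadjusted p under 0.05 in edgeR, 2 fat body markers passed in each of these and 1 against the repo-Gal4 control, and 0 of the other 4 lists did. Sex markers ranged widely, with yolk protein genes Yp1 to Yp3 summing to 9520 to 77573 CPM and roX RNAs to 50.1 to 694 CPM, and were not called.

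Some insertions were high in few libraries. INE-1{}5705, 44 bp in an intron of CG31221, had 98 counts in the fifth repo-Gal4 control and 60 in the first, 47 in the fourth overexpression library, and 0 in all 5 UAS controls. It was not called, with adjusted p of 0.184 and 0.169 against the UAS control in edgeR. 1360{}1718, which overlaps an exon of Glg1, had 0.838 CPM in the third overexpression library and at most 0.127 CPM in the other 14, while Glg1 was at 78.0 to 123 CPM throughout. The fourth overexpression library held the highest value for 243 members and the first UAS control for 266, against 7 for the third repo-Gal4 control and 18 for the fifth overexpression library.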

How the data were processed

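The authors deposited 1 table of read counts per library, with FlyBase gene and insertion identifiers. Per the submitters' processing notes, STAR, HTSeq and build BDGP6 were used; versions, strand setting and annotation release are not given in the sources used here. Libraries were made with TruSeq RNA v2, per the labels.

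Members follow the stated minimum of 10 counts. Members and lists were chosen with earlier results of these data known. Special counters stayed out of library sizes (counts outside genes were 5.62 to 8.23% of all). Names, coordinates and host genes came from the Ensembl annotation of BDGP6.54, which held 5576 of 5578 listed insertions. Strand of reads was not used.

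The test was edgeR 4.0.16's quasi-likelihood F test (R 4.3.3) on all 15896 features with 10 or more counts, library size being the sum of gene counts, without TMM factors, robust, with Benjamini-Hochberg adjustment. SEs are those implied by F. Nothing says that libraries came from separate flies, so p-values measure the spread between libraries. Simulated on 15896 features, the test recovered 66% of 4-fold and 90% of 16-fold changes against the repo-Gal4 control, and 62% and 90% against the UAS control. The changes were planted only in features, genes included, that averaged 10 or more counts per library. Of the 2016 members 628 did so, and recovery in the others was not tested. Counts were drawn independently for each feature, so no simulated library was low over many insertions together. Recovery under such shifts was not tested. Intervals and floors cover counting error only. Named insertions are the 10 of highest mean level, those called against both controls, those of smallest adjusted p in each comparison (4 each way between the controls, 3 each way otherwise), and the 3 highest in a single library. Alternatives were DESeq2 1.42.0, TMM factors, other minimums, a replicate block, a no-feature covariate, member scaling and left-out libraries. Figures used matplotlib 3.10.9.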

Additional observations from a re-analysis of the deposited data

Results flagged for a closer look

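In each group of 5, a library was singled out when its gap to the nearest other library exceeded 0.71 of the group's range (Dixon's 95% limit). This held in 16 of 69 groups examined, over the summed level and 22 named insertions, where chance alone gives about 1 in 20. The insertions share libraries, and 3 of the 22 were named for a high value in a single library and gave 2 of the 16 cases. The tally is therefore not comparable with that chance rate.

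The second UAS control was the lowest of its group in 9 of them. It had a summed level of 81.8 CPM, against 889 CPM or more in the others. Its level was 1.92 CPM for Doc{}CHKov1[Doc1420], 1.68 for accord{}818, 0.866 for H{}84, 0.662 for INE-1{}3227, 0.624 for 1360{}1514 and 0.293 for INE-1{}5364. It was 0.178 CPM for springer{}1464 and 0.751 CPM for opus{}861, against 0.532 and 5.32 CPM or more in the others. The third repo-Gal4 control was the lowest of its group for Doc{}CHKov1[Doc1420], at 4.39 CPM against 58.2 or more, but the highest for springer{}1464, at 10.3 CPM against 4.25 or less.

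The remaining cases were high libraries at low counts. The fourth repo-Gal4 control had 0.0697 CPM for jockey{}1009, and the second overexpression library had 0.0299 CPM for 297{}1261, where the other 4 were at 0. The first UAS control had 0.353 CPM for 297{}1261. The fourth overexpression library had 0.819 CPM for INE-1{}5705, and the third had 0.838 CPM for 1360{}1718.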

How the results depend on the processing

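The counts of called insertions, 4 against the repo-Gal4 control, 15 against the UAS control, 12 between the controls and 1 against both, stayed within 1.5 times with TMM factors, filterByExpr, no minimum or an added 1.5-fold limit. With a minimum of 100 counts 2 were called against both controls, and 9 were called against the mean of both. In the same order, DESeq2 called 23, 44, 36 and 8, a no-feature covariate gave 25, 82, 41 and 8, and scaling by insertion counts gave 9, 26, 20 and 4. That scaling kept 3 of the 4, 9 of the 15 and 9 of the 12 calls above, and the 1 against both, and lost the rest. Without the second UAS control and the third repo-Gal4 control there were 51, 97, 28 and 22, and without the third overexpression library as well 54, 107, 60 and 20. The covariate, the scaling and the last setting were chosen after seeing the data. The cause of these differences was not tested. Shares over all features are given above only for the main fit and for the fits without 2 or 3 libraries. For the other settings in this section, the counts of called insertions are not by themselves a result about insertions.

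Leaving out 1 library at a time gave 2 to 12, 6 to 30, 7 to 22 and 1 to 5 calls. The highest counts came without the second UAS control. The lowest of the first 3 counts came without the fifth overexpression library, the first or the second repo-Gal4 control, or the first, the third or the fifth UAS control. The last count was 1 in 11 of the 15 fits. Against the UAS control, 6 to 9 were called without any 1 overexpression library other than the third, any 1 UAS control other than the second, or the fifth repo-Gal4 control. The call of 1731{}2219 against both controls held in each of these 15 fits. The ratio of summed levels ranged from 0.627 to 0.874 against the repo-Gal4 control, 0.629 to 0.878 against the UAS control and 0.821 to 1.21 between the controls.

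Whether replicate numbers pair the libraries was not settled, with correlations of same-numbered libraries from -0.88 to 0.79. Libraries numbered 1 matched each other best in each pair of groups, and those numbered 2 in none. With the replicate block 1, 6 and 5 insertions were called, and 1 against both controls. All were among the 4, 15, 12 and 1 called without it, and the other calls were lost. With DESeq2 size factors the median log2 fold change of genes against the UAS control was -0.13, where it was 0.07 with gene counts. In simulation 12 to 18% of 2-fold changes were recovered, and insertions at few counts are limited by depth.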
